A study of Homo sapiens with 6 samples.

Results

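The H2A and H2B genes of the histone clusters were examined in FaDu cells, a long-established cell line grown out of a human hypopharyngeal squamous carcinoma. The members were all rows of the authors' table whose gene name starts with HIST1, HIST2 or HIST3 followed by H2A or H2B. The rule used names only, and gave 37 coding sequences of 35 genes, out of 82428 coding sequences of 20660 gene names. There were 17 H2A genes and 18 H2B genes. Cells were treated with BB608, a compound known here by its code alone, or with its vehicle DMSO, with 3 biological replicates per group. Total RNA was depleted of ribosomal RNA and sequenced, so RNA without a poly(A) tail was kept. The authors pooled each group's libraries into 1 FPKM value per coding sequence, a level scaled to sequence length and to library size. Levels of single libraries, the dose and the treatment time were not given in the sources used here.

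Histones H2A and H2B pair as dimers, and dimers of both sit with histones H3 and H4 in the core of the nucleosome, the unit that DNA is wrapped around. The cluster genes supply these proteins chiefly while DNA is copied in S phase, and many copies encode nearly the same protein. Their mRNAs mostly end in a short stem-loop bound by the protein SLBP in place of a poly(A) tail. Many H2A and H2B genes lie head to head and share the stretch of DNA between their start sites, and H2B promoters are known for an octamer motif bound by the POU-domain factor encoded by POU2F1.

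The sequences below show the features that these genes share. Under current RefSeq names, 34 of the 35 members had a promoter in the RefSeq set, and HIST1H2AH had none there. The search covered 250 bases before to 50 bases after each start, on both strands. The octamer ATTTGCAT was in 25 of the 34 member promoters, against 1.77% of all 35116 promoters of that length. It stood on the gene's own strand in 13 of 18 H2B promoters and in 1 of 16 H2A promoters, and 11 H2A promoters held it on either strand. TATAAA was in 24 of the 34, against 11.5% of all promoters, and CCAAT in all 34, against 34.6%. None of the 3 motifs contains another. Windows of head-to-head H2A and H2B genes cover much of the same DNA, so 1 match can count for both genes. The 200 bases before the start of 4 H2B genes are printed 5′ to 3′ in the direction of the gene, from RefSeq on GRCh38.p14, with matches to the 3 motifs on either strand in capitals. HIST1H2BJ was among the called genes described below, HIST1H2BK had the smallest fold of the tested H2B genes, HIST2H2BE the lowest level of them, and HIST3H2BB the largest fold.
HIST1H2BJ (chr6:27132796-27132995, minus strand): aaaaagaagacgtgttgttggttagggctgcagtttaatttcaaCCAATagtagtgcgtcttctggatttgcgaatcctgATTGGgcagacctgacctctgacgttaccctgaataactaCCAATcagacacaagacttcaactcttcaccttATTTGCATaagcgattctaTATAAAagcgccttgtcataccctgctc
HIST1H2BK (chr6:27146859-27147058, minus strand): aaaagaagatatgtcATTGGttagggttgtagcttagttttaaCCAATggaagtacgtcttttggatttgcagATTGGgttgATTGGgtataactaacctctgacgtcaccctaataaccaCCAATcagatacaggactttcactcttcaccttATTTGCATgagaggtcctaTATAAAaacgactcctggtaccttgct
HIST2H2BE (chr1:149886683-149886882, minus strand): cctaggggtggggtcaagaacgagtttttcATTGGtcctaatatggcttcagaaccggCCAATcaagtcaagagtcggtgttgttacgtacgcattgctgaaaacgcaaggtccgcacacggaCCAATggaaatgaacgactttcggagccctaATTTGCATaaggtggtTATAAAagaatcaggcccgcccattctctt
HIST3H2BB (chr1:228457903-228458102, plus strand): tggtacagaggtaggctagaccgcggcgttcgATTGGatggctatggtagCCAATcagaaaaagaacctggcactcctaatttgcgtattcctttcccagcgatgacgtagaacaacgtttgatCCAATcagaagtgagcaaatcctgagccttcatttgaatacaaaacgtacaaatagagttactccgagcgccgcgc
The octamer began 47 bases before the start in HIST1H2BJ and 46 bases before it in HIST1H2BK and HIST2H2BE, with TATAAA between it and the start in all 3. HIST3H2BB had CCAAT at 3 places and no match to the octamer or TATAAA in its window. A match is a run of letters and not a measured binding site.

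The stem-loop at the end of histone mRNAs was looked for in the GENCODE 29 transcripts of the members, with the stem printed in capitals. HIST1H2BD, HIST1H2BC and HIST1H2BF carried 1 form, 14 other members a second form with another last loop base, and HIST1H2AG a form with another base in the second arm of the stem.
HIST1H2BD: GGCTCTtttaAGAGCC
HIST1H2BE: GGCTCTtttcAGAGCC
HIST1H2AG: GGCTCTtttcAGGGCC
In all, 18 of 35 members held a stem-loop match, 7 H2A and 11 H2B genes, against 0.188% of 19669 protein-coding genes. The annotated transcripts of 15 of the 17 members without a match stop at the coding sequence, so that the stretch where it would lie was not searched. The other 2, HIST1H2BA and HIST1H2BJ, had annotated transcripts longer than the coding sequence. On which side of it the extra bases lie was not examined, so that stretch may not have been searched there either.

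With BB608, the H2A and H2B cluster genes were higher as a group, in both families. The authors tested 32 of the 37 coding sequences, 1 for each of 32 genes, and all 32 had a higher FPKM in BB608 than in DMSO. Of all 34474 tested rows 54.3% were higher in BB608. With calls taken from the authors' deposited table, where Cuffdiff gave a q under 0.05, 18 of the 32 members rose, against 0.142% of all tested rows called higher. The median log2 fold of the 32 members was 0.40, against 0.04 over all tested rows. The folds ran from 0.07 to 0.88, and the middle 50% of them lay between 0.37 and 0.51. Because the RNA comes from many cells, more cells with these transcripts and more of them per cell cannot be told apart.

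The tested members are mostly abundant and have 1 tested coding sequence each. The error of a fold is given as an implied SE, derived from the authors' statistic and p, and its median over the tested members was 0.10 log2. Genes with 1 tested coding sequence and a mean of at least 10 FPKM form a closer background, with a median implied SE of 0.14 log2 outside the histone clusters. Of 839 such genes 59.1% were higher in BB608 by any amount and 3.81% were called higher, and of the 781 outside the histone clusters 0.256%. The 2 genes called higher among these 781 were CCDC85B and LMNB2, the gene of the nuclear lamin B2, both seen only after their values were known. Genes of this class called lower in BB608 are not counted here. The median log2 fold of the members in this class, 31 genes, was 0.40, against 0.02 for the other genes, of which 3.08% reached the median of the 31. The other genes passed the same limit of 10 FPKM but were not matched to the members in level, and their median error was larger. The counts are therefore not a like-for-like contrast and are no test across replicates.

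**Figure D1:**
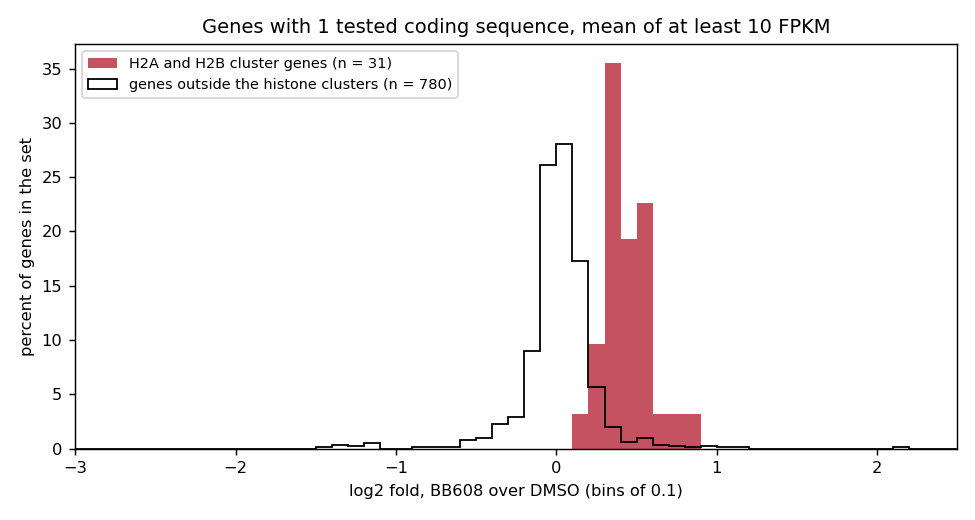
Log2 fold of BB608 over DMSO (x axis, bins of 0.1) for genes with 1 tested coding sequence and a mean of at least 10 FPKM, as the percent of each set (y axis); filled bars are 31 H2A and H2B cluster genes and the outline 780 genes outside the histone clusters, with 1 gene listed at 0 in BB608 left out. The members lie between 0.17 and 0.88, to the right of the other genes' median of 0.02.

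Among the H2A genes, 7 of 15 tested members rose, namely HIST1H2AB, HIST1H2AC, HIST1H2AG, HIST1H2AH, HIST1H2AI, HIST1H2AK and HIST1H2AL. All of them encode core H2A proteins made during DNA replication. HIST1H2AH had the highest pooled level in BB608 with 531 FPKM, against 397 FPKM in DMSO, a log2 fold of 0.42 (implied SE 0.09). HIST1H2AE, the H2A gene with the highest level in DMSO, had 508 FPKM in BB608 and 403 FPKM in DMSO. Its log2 fold of 0.33 (implied SE 0.14) was not called, with a Cuffdiff p of 0.0149 (q 0.997) in the authors' deposited table. The 2 most abundant H2A genes had similar folds and opposite calls, with a larger error for the one not called.

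HIST1H2AM was at 415 FPKM in BB608 and 317 FPKM in DMSO, a log2 fold of 0.39 (implied SE 0.12) that was not called. HIST1H2AD was at 392 FPKM in BB608 and 286 FPKM in DMSO, a log2 fold of 0.46 (implied SE 0.18), also not called. Together with HIST1H2AE, these members share their locus in the table with another histone gene. The 4 most abundant H2A genes in DMSO held 48.3% of all H2A FPKM in BB608 and 48.8% in DMSO.

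The largest called H2A fold was in HIST1H2AK, at 82.9 FPKM in BB608 and 54.4 FPKM in DMSO, a log2 fold of 0.61 (implied SE 0.12). HIST1H2AL followed with 243 FPKM in BB608 and 166 FPKM in DMSO, a log2 fold of 0.55. HIST1H2AB had 242 FPKM in BB608 and 171 FPKM in DMSO, a log2 fold of 0.50. The smallest called H2A fold was 0.37 (implied SE 0.10) in HIST1H2AI. HIST1H2AJ, whose coding sequence is 96.4% identical to that of HIST1H2AI, had a log2 fold of 0.24 (implied SE 0.10) and was not called.

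Among the H2B genes, 11 of 17 tested members rose, namely HIST1H2BB, HIST1H2BE, HIST1H2BF, HIST1H2BH, HIST1H2BJ, HIST1H2BL, HIST1H2BM, HIST1H2BO, HIST2H2BE, HIST2H2BF and HIST3H2BB. HIST1H2BH had the highest level of all members, with 1039 FPKM in BB608 and 806 FPKM in DMSO, a log2 fold of 0.37 (implied SE 0.09). HIST1H2BG came next with 807 FPKM in BB608 and 627 FPKM in DMSO, a log2 fold of 0.36 (implied SE 0.14) that was not called. As with the most abundant H2A genes, nearly equal folds fell on both sides of the threshold, with the larger error on the side not called.

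HIST1H2BI had 588 FPKM in BB608 and 474 FPKM in DMSO, a log2 fold of 0.31 (implied SE 0.09). HIST1H2BD had 561 FPKM in BB608 and 474 FPKM in DMSO, a log2 fold of 0.24 (implied SE 0.09). Neither was called, with a Cuffdiff p of 0.0008 (q 0.167) for HIST1H2BI and of 0.00815 (q 0.812) for HIST1H2BD in the authors' deposited table. These are small folds measured about as precisely as those of the called genes. The 4 most abundant H2B genes in DMSO held 48.2% of all H2B FPKM in BB608 and 49.9% in DMSO.

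Several further H2B genes of the HIST1 cluster had called folds near 0.5. HIST1H2BE had 307 FPKM in BB608 and 215 FPKM in DMSO, a log2 fold of 0.52 (implied SE 0.10). HIST1H2BJ had 323 FPKM in BB608 and 227 FPKM in DMSO, a log2 fold of 0.51. HIST1H2BF had 131 FPKM in BB608 and 92.9 FPKM in DMSO, a log2 fold of 0.49. HIST1H2BM had 524 FPKM in BB608 and 378 FPKM in DMSO, a log2 fold of 0.47. The smallest fold among tested H2B genes was in HIST1H2BK, at 183 FPKM in BB608 and 163 FPKM in DMSO, a log2 fold of 0.17 with a 95% interval from -0.17 to 0.50 by the implied SE.

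**Figure D2:**
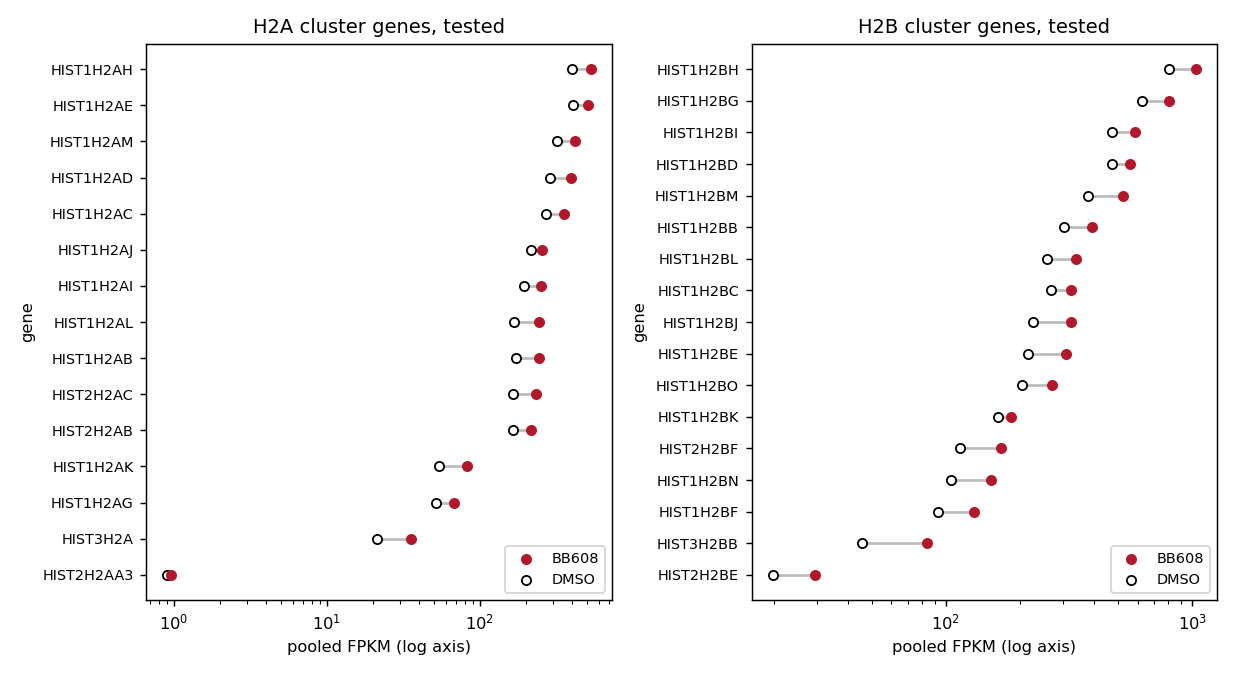
Pooled FPKM (x axis, log scale) of the 15 tested H2A genes (left) and the 17 tested H2B genes (right); filled points are BB608 and open points DMSO, 1 pooled value per group with no error. Every filled point lies to the right of its open point, and the order of the genes by level is nearly the same in both groups.

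The families were then set side by side. Summed over all coding sequences, H2A reached 3825 FPKM in BB608 and 2878 FPKM in DMSO, a log2 ratio of 0.41. Summed H2B FPKM was 6218 in BB608 and 4770 in DMSO, a log2 ratio of 0.38. Sums depend less than single genes on how reads were divided among members, but members differ in length and some share sequence with genes outside the sums. H2B FPKM was 1.63 times H2A FPKM in BB608 and 1.66 times in DMSO. The order was the other way in HIST2, where H2B FPKM was 0.442 times H2A FPKM in BB608 and 0.404 times in DMSO. The median log2 fold was 0.40 for the H2B genes and 0.39 for the H2A genes, a difference of 0.0092. H2B minus H2A, the medians differed by -0.01 in HIST1, 0.18 in HIST2 and 0.13 in HIST3, the last from 1 gene of each family. These differences could not be tested without values per library.

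The order of the members by level was also alike in both groups. In each family the same 4 genes were the most abundant in BB608 and DMSO. No tested member moved by more than 1 place in its family's order, and 11 of 15 H2A genes and 13 of 17 H2B genes kept their place. The table gives no spread for a level, so it does not show which neighbours in that order differ. The largest change in a gene's share of its family was 0.91 percentage points, in HIST1H2BD. Across the 31 members of at least 10 FPKM, lower levels went with larger folds, with a Spearman correlation of -0.61 between mean level and fold. The 15 less abundant of them had a median log2 fold of 0.50 and the 16 more abundant ones 0.39. These genes come from the same libraries, and level enters both measures.

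The members were next taken by cluster. HIST1, the large cluster on chromosome 6, spans 25726290 to 27861669 in hg19. It held 92.4% of the members' summed FPKM in BB608 and 93.0% in DMSO. Of its 25 tested members 15 rose, with a median log2 fold of 0.39. HIST2, on chromosome 1 from 149754226 to 149872351, had 2 of 5 tested members that rose and a median of 0.48. Among members alone in their locus the HIST2 median was 0.32 over 2 genes, below the HIST1 median of 0.40 under the same limit. These 2 were HIST2H2BE, with a log2 fold of 0.57, and HIST2H2AA3, with 0.07 at 0.959 FPKM in BB608. Among members of at least 10 FPKM the HIST2 median was 0.52, against 0.39 for HIST1. The order of these clusters is thus not settled. HIST3, on chromosome 1 from 228643889 to 228646259, had 1 of 2 tested members that rose and a median of 0.81. The summed FPKM of HIST3 was 119 in BB608 and 66.7 in DMSO, a log2 ratio of sums of 0.84, against 0.47 for HIST2 and 0.38 for HIST1. HIST3 thus had the largest ratio and the lowest level, and it consists of 2 tested genes here. Differences between clusters were not tested.

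HIST3H2BB encodes an H2B protein and had 83.5 FPKM in BB608 and 45.5 FPKM in DMSO, a log2 fold of 0.88 (implied SE 0.12). Its neighbour HIST3H2A had 35.5 FPKM in BB608 and 21.2 FPKM in DMSO, a log2 fold of 0.74 (implied SE 0.20). HIST3H2A was not called, with a Cuffdiff p of 0.0007 (q 0.155) in the authors' deposited table. The 2 HIST3 folds were the largest of the 32, and the 95% interval of HIST3H2BB, from 0.65 to 1.11, lay above the median of all tested members. That of HIST3H2A, from 0.35 to 1.13, held this median.

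In HIST2, HIST2H2BF had 168 FPKM in BB608 and 114 FPKM in DMSO, a log2 fold of 0.56 (implied SE 0.10). HIST2H2BE had 29.4 FPKM in BB608 and 19.8 FPKM in DMSO, a log2 fold of 0.57 (implied SE 0.10). HIST2H2AC had 231 FPKM in BB608 and 165 FPKM in DMSO, a log2 fold of 0.48 (implied SE 0.14). It and HIST2H2AB, at 216 FPKM in BB608 and 165 FPKM in DMSO with a log2 fold of 0.39 (implied SE 0.14), share 1 locus and were not called. Both HIST2 H2B genes thus rose, while the 2 abundant H2A genes had similar folds with larger errors.

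HIST2H2AA3 was at 0.959 FPKM in BB608 and 0.912 FPKM in DMSO, the only tested member under 10 FPKM. Its 95% interval, from -0.60 to 0.74 log2, holds the folds of all other tested members except the HIST3 genes. HIST2H2AA4 was not tested and is listed at 0 in BB608 and at 0.210 FPKM in DMSO. Their coding sequences are identical in GENCODE 29, so reads within them match both genes. The testis-type genes were near 0 as well. HIST1H2AA is listed at 0 in BB608 and at 0.0620 FPKM in DMSO, and HIST1H2BA at 0 in BB608 and at 0.0774 FPKM in DMSO, neither of them tested.

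Along HIST1 the members fell into 3 stretches parted by more than 500000 bases. In the stretch from 25726290 to 26273622, 6 of 12 tested members rose, with a median log2 fold of 0.37. In the stretch from 27094057 to 27115317, 3 of 4 rose, with a median of 0.41. In the stretch from 27775256 to 27861669, 6 of 9 rose, with a median of 0.40. Differences between the stretches were not tested.

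**Figure D3:**
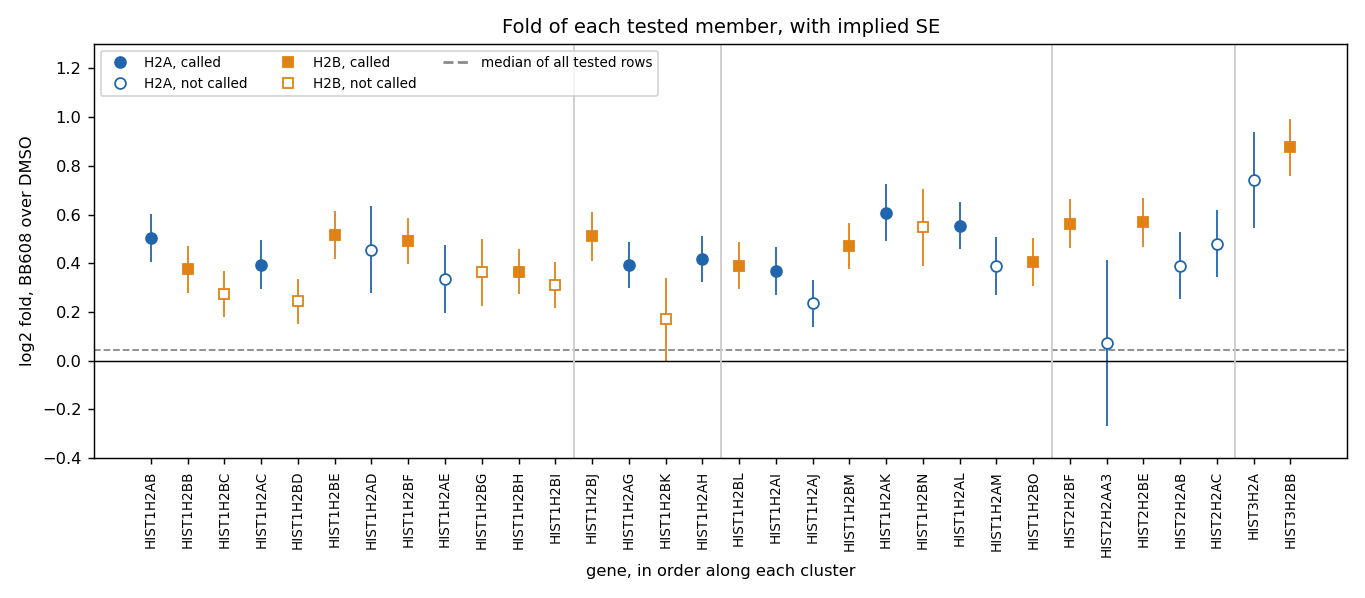
Log2 fold of BB608 over DMSO (y axis) for the 32 tested members in their order along HIST1, HIST2 and HIST3 (x axis), with bars of 1 implied SE; filled marks are called, open marks are not, and vertical lines part clusters and the 3 stretches of HIST1. The 32 marks lie above 0, and the HIST3 genes at the right reach 0.74 and 0.88.

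Head-to-head pairs allowed the families to be compared at matched sites. There were 12 pairs of an H2A and an H2B gene that start within 193 to 270 bases of each other on opposite strands, by RefSeq starts or, for HIST1H2AH, the GENCODE 29 start. In 11 pairs both genes were tested. The H2B gene had the larger fold in 8 of them and the H2A gene in 3. The difference, H2B minus H2A, ran from -0.25 to 0.24 log2, with a median size of 0.09. It was smaller than its own implied SE in 9 of 11 pairs and than 2 such SEs in all 11, taking the errors of both genes as independent.

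Both genes were called in 2 pairs, HIST1H2AG with HIST1H2BJ and HIST1H2AI with HIST1H2BL. The H2B gene alone was called in 5 pairs, the H2A gene alone in 3, and neither in the pair of HIST1H2AE and HIST1H2BG. A call in 1 gene of a pair does not show that its partner differs from it. The lowest difference was in the pair HIST1H2AH and HIST1H2BK, at -0.25 (implied SE 0.20), and the highest in HIST1H2AJ and HIST1H2BM, at 0.24 (implied SE 0.14). Levels within pairs ran from nearly equal to far apart. HIST1H2BC had 0.909 times the FPKM of HIST1H2AC in BB608 and 0.988 times in DMSO. The H2B gene had from 0.127 to 4.76 times the FPKM of its H2A partner in BB608 and from 0.120 to 4.39 times in DMSO, and was the higher of the pair in 6 of 11 pairs in each group.

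**Figure D4:**
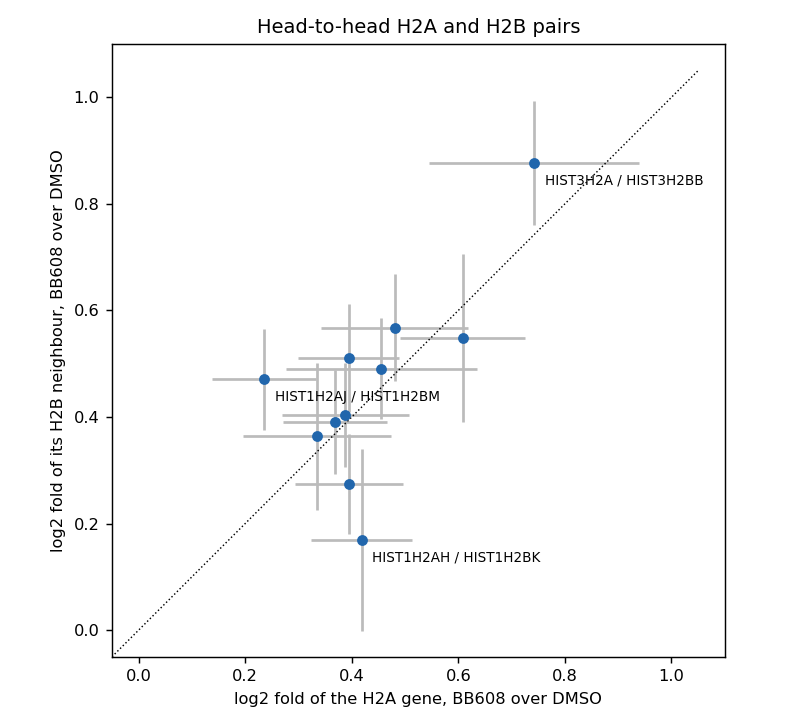
Log2 fold of BB608 over DMSO for the H2A gene (x axis) and the H2B gene (y axis) of 11 head-to-head pairs, with bars of 1 implied SE; the dotted line marks equal folds. Most pairs lie near the line, the HIST3 pair lies highest at 0.74 and 0.88, and the pairs with the 2 largest differences are named.

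Members were also set side by side by their promoter letters. Tested members with the octamer on either strand had a median log2 fold of 0.39 and 13 of 23 rose, while the 8 without it had 0.47 and 4 of them rose. Tested members with TATAAA, on either strand and anywhere in the window, had a median of 0.39, with 11 of 21 that rose. The 10 without it had 0.55, with 6 that rose. The genes without TATAAA include both HIST3 members and HIST1H2AK, which have the 3 largest folds of all tested members. These groupings were made after the folds were known. The groups also differed in level. The median in BB608 was 307 FPKM with TATAAA and 160 FPKM without it, and 307 FPKM with the octamer and 118 FPKM without it. The part of level in these medians was not tested.

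Called and uncalled members overlapped in fold and differed in median error, at 0.10 log2 for called and 0.14 log2 for uncalled members. All 18 called members had the smallest p that Cuffdiff gave, 5e-05 (q 0.0154), in the authors' deposited table. Of the 14 tested members not called, 12 had a Cuffdiff p under 0.05 in that table before adjustment. The share of all tested rows under that limit is not given here. With p and q tied among the called members, HIST1H2AI and HIST1H2AC had the lowest deposited statistics of those inside the threshold, with log2 folds of 0.37 and 0.39 (implied SE 0.10 each). Just outside lay HIST2H2AC, with a Cuffdiff q of 0.108 in the authors' deposited table, and HIST1H2BN, with a log2 fold of 0.55 (implied SE 0.16) and a q of 0.146 there. HIST1H2BN had 153 FPKM in BB608 and 104 FPKM in DMSO, and its fold exceeded that of most called members.

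Members that share a locus in the table with another gene had larger errors. There were 8 such tested members, with a median implied SE of 0.14 and 1 call, HIST2H2BF, against 0.10 and 17 calls among the 24 alone in their locus. The median log2 fold was 0.39 for those that share a locus and 0.41 for the others. HIST1H2AE shares its locus with HIST1H2BG, and HIST2H2AB with HIST2H2AC and BOLA1. HIST1H2AD shares its locus with HIST1H3D, HIST1H2AM with HIST1H3J, HIST1H2BK with HIST1H4I, and HIST2H2BF with FCGR1A. The part of overlapping loci in these errors was not tested.

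Near-identical copies can split reads between them, so the fold of a member that shares long stretches with another gene is uncertain. Coding sequences of GENCODE 29 were compared in all pairs of a family, and the median identity was 85.0% among H2A genes and 89.2% among H2B genes. Windows of 50 bases were then looked up in transcripts of all other genes outside the member's own locus. No window was shared for 8 members, of which 6 were tested, namely HIST1H2AB, HIST1H2AE, HIST1H2BB, HIST1H2BG, HIST1H2BH and HIST1H2BM. All 6 were higher in BB608, with log2 folds from 0.33 to 0.50 and a median of 0.37, and 4 of them rose. Members with less than 10% of windows shared had a median of 0.39 over 17 tested genes, against 0.40 over the 15 others. Among those others, the share was 41.3% in HIST3H2BB, 52.4% in HIST2H2BE and 73.5% in HIST2H2BF. The length of the reads was not given in the sources used here, and reads may also fall outside coding sequences.

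Other genes that make or handle H2A and H2B were read from lists of names. In each list a gene was counted if any of its tested coding sequences passed. Over all 34474 tested rows 0.354% were called in either direction, so a short list without a call is not set apart by it. The share of all rows with an unadjusted Cuffdiff p under 0.05 is not given here. Of 12 H2A and H2B genes listed as replication-independent, a mixed list whose expression over the cell cycle was not examined, 6 were tested. None was called by Cuffdiff, nor had any a p under 0.05 before adjustment in the authors' deposited table. Their most abundant coding sequences had a median log2 fold of 0.18. H2AFZ, which encodes the variant H2A.Z, was at 224 FPKM in BB608 and 194 FPKM in DMSO, a log2 fold of 0.20 (implied SE 0.21). H2AFY2, a macroH2A gene, was at 7.82 FPKM in BB608 and 6.84 FPKM in DMSO, a log2 fold of 0.19 (implied SE 0.61). H2AFX, the H2A.X gene, had a log2 fold of 0.19 (implied SE 0.10), and H2AFJ one of 0.16 (implied SE 0.14), both picked after their values were seen. The folds of the 6 genes ran from -0.06 to 0.20, below the cluster genes' median. The error of H2AFX was close to the median error of the tested cluster genes, 0.10. The difference between these genes and the cluster genes was not tested.

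Chaperones and importers of H2A-H2B dimers had 0 Cuffdiff calls in 17 tested genes, 1 gene with a p under 0.05 before adjustment in the authors' deposited table, and a median log2 fold of 0.08. Those with the largest folds were EP400, a chromatin remodelling subunit, at 1.24 FPKM in BB608 and 0.257 FPKM in DMSO with a log2 fold of 2.28 and a Cuffdiff p of 0.015 in the authors' deposited table, and NCL, the nucleolin gene, with a log2 fold of 0.35 (implied SE 0.37). Enzymes that add ubiquitin to H2A or H2B or remove it had 0 Cuffdiff calls in 26 tested genes, 4 genes with a p under 0.05 before adjustment in the authors' deposited table, and a median of -0.03. RNF20, an H2B ubiquitin ligase gene, had a log2 fold of -0.85 (implied SE 0.78), and the deubiquitinase gene USP21 -1.88 (implied SE 1.07). The Cuffdiff p of these 2 coding sequences in that table was 0.303 for RNF20 and 0.157 for USP21, both above 0.05. USP21 was at 0.514 FPKM in BB608 and 1.89 FPKM in DMSO. Factors of histone gene transcription and of the histone mRNA 3′ end had a median of -0.03, with 1 of 19 tested genes called. That gene was CSTF2, which encodes a cleavage stimulation factor subunit, with 4.81 FPKM in BB608 and 1.51 FPKM in DMSO for the called coding sequence, and 10.3 FPKM in BB608 and 11.7 FPKM in DMSO for its most abundant one. CCNE2, a cyclin E gene, had -1.32 (implied SE 1.36), and SYMPK, a scaffold of the cleavage complex, 0.90 (implied SE 0.91).

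The other cluster histones were higher in BB608 as well. H1 genes had a median log2 fold of 0.39 with 3 of 6 tested members that rose, HIST1H1B, HIST1H1D and HIST1H1E. H3 genes had 0.43 with 6 of 11, HIST1H3A, HIST1H3C, HIST1H3F, HIST1H3H, HIST1H3I and HIST2H3D. H4 genes had 0.25 with 3 of 11, HIST1H4B, HIST1H4L and HIST4H4. All tested members of these lists were higher in BB608, and their differences from H2A and H2B were not tested. HIST1H1T, the testis-type H1 gene, had a log2 fold of 1.02 (implied SE 0.35) and HIST1H4I 0.53 (implied SE 0.22), neither called. HIST1H3D, which shares its locus with HIST1H2AD, had 0.72 (implied SE 0.20) and was not called either.

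The cell type and scale behind these values were checked on the whole table. All 8 squamous epithelial markers, KRT5 and TP63 among them, were above 1 FPKM in both groups. Their summed FPKM was 2926 in BB608 and 2769 in DMSO. Blood, endothelial and fibroblast markers were all under 1 FPKM in both groups for the 7 found in the table, with CD3E and LUM listed at 0. PECAM1 had no row there under that name. The H2A and H2B cluster genes took 2.00% of all FPKM in BB608 and 1.56% in DMSO. Scaling by the median of log2 ratios shifts each fold by 0.04 and leaves all 32 members higher in BB608, while quantile normalization leaves 31. Sequencing depth is unknown, since pooled FPKM values carry no read counts, and no library could be compared with another.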

How the data were processed

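Per the labels' protocols, total RNA from FaDu cells was depleted of ribosomal RNA and made into stranded libraries. The submitters' processing notes name TopHat2 2.0.11, Cufflinks 2.2.1, Cuffdiff and the build hg19. The authors deposited, for each coding sequence, 1 pooled FPKM value per group, a log2 fold, a test statistic (a score), and a p-value and q-value. The deposited log2 fold equalled the log2 ratio of both FPKM levels within 4.72e-05, rows at or below 0.001 FPKM left aside, so folds here are that ratio, BB608 over DMSO. No annotation was given in the sources used here.

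The planned limma test needs values per library, so the authors' q under 0.05, adjusted over all 34474 tested rows, was used. The implied SE is the log2 fold over 1.74 times the statistic, where 1.74 is the median of the normal quantile of p over the statistic in 34310 rows (quartiles 1.65 and 1.79). It carries no more than the authors' modelled spread. No depth or spread between replicates can be given. The arithmetic of these steps was tested on simulated data built with the same 1.74. That test cannot show how well 1.74 fits single rows of the real data.

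Named members were the 12 called ones with the largest folds, the 4 most abundant of each family, all of HIST2 and HIST3, the testis-type genes, members beside the threshold and members sharing a locus. Values of others, such as HIST1H2BK and HIST1H2AJ, were chosen after they were seen. From other lists, called genes and the 2 largest folds at 1 FPKM or more were named. Members and lists were chosen with earlier results of these data known. Promoters are from RefSeq on GRCh38.p14 and transcripts from GENCODE 29, matched by name. Python 3.11.15, numpy 2.4.6, pandas 2.3.3, scipy 1.17.1 and biopython 1.88 were used.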

Additional observations from a re-analysis of the deposited data

Results flagged for a closer look

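HIST2H2BF has 2 more coding sequences that the authors did not test, with values above those of the control cells. They are listed at 0.539 FPKM in BB608 and 0.352 FPKM in DMSO, and at 0.242 FPKM in BB608 and 0.206 FPKM in DMSO. The tested coding sequence of the same gene is at 168 FPKM in BB608 and 114 FPKM in DMSO.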

How the results depend on the processing

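No paired analysis was possible because each group has a single pooled level per coding sequence, and for the same reason no replicate could be left out. The count of called members, 18, was again 18 with q recomputed over rows of at least 1 or at least 5 FPKM or with a log2 bound of 0.3, 19 with normal p-values taken from the deposited statistic, 17 among members alone in their locus and 23 with q recomputed over genes with 1 tested coding sequence; the last 2 were chosen after seeing the data. Over the alternatives the H2A median log2 fold ran from 0.36 to 0.42 and the H2B median from 0.37 to 0.44. The HIST2 median was 0.32 among members alone in their locus, where 2 of 5 genes remain, against 0.40 for HIST1. HIST2H2AA3, at 0.959 FPKM in BB608, is 1 of these 2. Among members with under 10% of windows shared the median was 0.39 for both clusters, for HIST2 from HIST2H2AB alone. HIST2 thus no longer lay above HIST1 in these settings. It did among members of at least 10 FPKM, at 0.52 against 0.39. None of 52 settings moved a named fold by more than its implied SE, which is wide for some genes, so this is no measure of stability.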
